A study of Rattus norvegicus with 8 samples.

Results

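The 8 genes described here were grouped under p53 and GADD45 growth arrest, namely Cdkn1a, Cdkn1b, Gadd45a, Gadd45b, Mdm2, Gdf15, Trp53inp1 and Tigar. The group takes in a p53 regulator (Mdm2), a secreted ligand (Gdf15) and a metabolic enzyme (Tigar). The 8 genes were chosen by symbol, with earlier results of these data known. All 8 were found among the 4226 genes of the deposited expression table, each under 1 gene identifier. RNA-seq libraries had been made from nucleus pulposus cells of the rat, which fill the gel-like centre of the intervertebral disc. SOD1, the copper-zinc superoxide dismutase of the cytosol, had been knocked down in all cells, which were then transfected with SOD1 carrying a lysine-to-arginine substitution (SOD1-K123R, 4 libraries) or with the wild-type protein (SOD1-WT, 4 libraries). The level of Sod1 itself was not analysed here, so the knockdown and the transfection are known from the labels only. All 8 libraries came from cells given 10 mM lactate for 7 days, per the labels, which makes the comparison one between the K123R and the wild-type protein under lactate. The table heads the SOD1-K123R columns L and the SOD1-WT columns Ctrl. The labels do not expand these letters. Should L stand for lactate, the groups would differ in treatment and not in the SOD1 protein, and the files do not settle this. No library labelled as free of lactate was analysed here. The labels also do not say whether the cells were a primary culture or a line, or whether replicates were separate cultures. The p-values therefore set the difference between the groups against the spread of libraries within a group, which may be technical.

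The transcription factor p53 is held at a low level by Mdm2, a ubiquitin ligase that p53 itself induces, and accumulates when DNA damage or other stress interrupts this loop. It then induces inhibitors of cyclin-dependent kinases (CDKs), which drive the cell cycle, and the GADD45 proteins, which bind the replication clamp PCNA and activate stress kinases. Several of these genes also respond to stress signals that do not pass through p53, and their activity in disc cells is studied mainly in relation to senescence, a lasting arrest of growth.

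Of the 8 genes, 7 rose and 1, Tigar, fell in SOD1-K123R cells. The values were TPM, which take transcript length and sequencing depth into account and can be set side by side between genes. Tests were made on log2(TPM + 1) with limma, and a gene passed where its p, adjusted by the Benjamini-Hochberg method, was under 0.05. Over the whole table, 95.7% of 2890 tested genes passed this threshold, 44.6% of them as higher and 51.1% as lower in SOD1-K123R, so that passing sets none of the 8 genes apart. Their sizes lay towards the upper end: the log2 fold change was at least 3 for 4 of the 8 genes, against 0.900% of all tested genes, and at least 2 for 6 of the 8, against 3.94%. The median log2 fold change was 2.68 over the 8 genes and -0.49 over all tested genes. Because the 8 genes were chosen with earlier results known, these comparisons describe them and do not test them. The 2 groups did not overlap for any of the 8, nor for 91.4% of the tested genes (42.6% higher and 48.8% lower in SOD1-K123R). All these shares are of the rows of the table, which holds only part of the genes, chosen by a rule that is not known. These are bulk libraries, in which a change in the number of cells that express a gene and a change in its RNA per cell cannot be told apart.

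**Figure D1:**
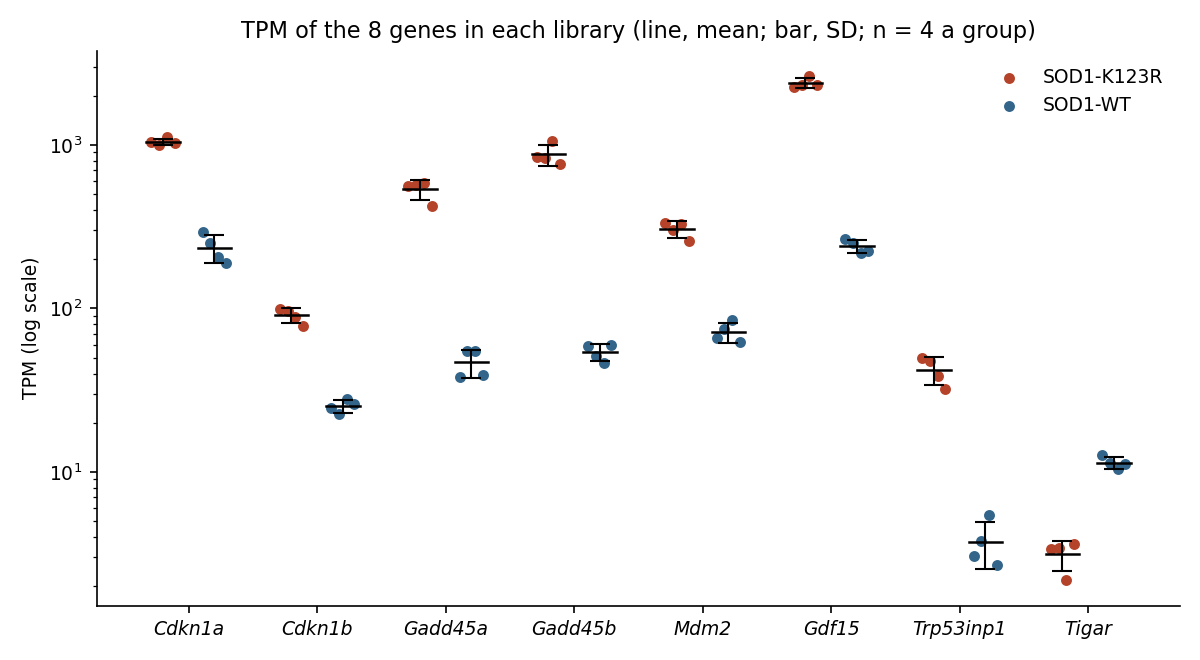
TPM of the 8 genes, on a log axis, in each library of SOD1-K123R (red) and SOD1-WT (blue) cells; points are libraries, lines are means and bars are SD (n = 4 a group). For 7 genes every SOD1-K123R library lies above every SOD1-WT library, and for Tigar the 4 SOD1-K123R libraries, at 2.17 to 3.62 TPM, lie below the SOD1-WT libraries, at 10.4 to 12.8 TPM.

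**Figure D2:**
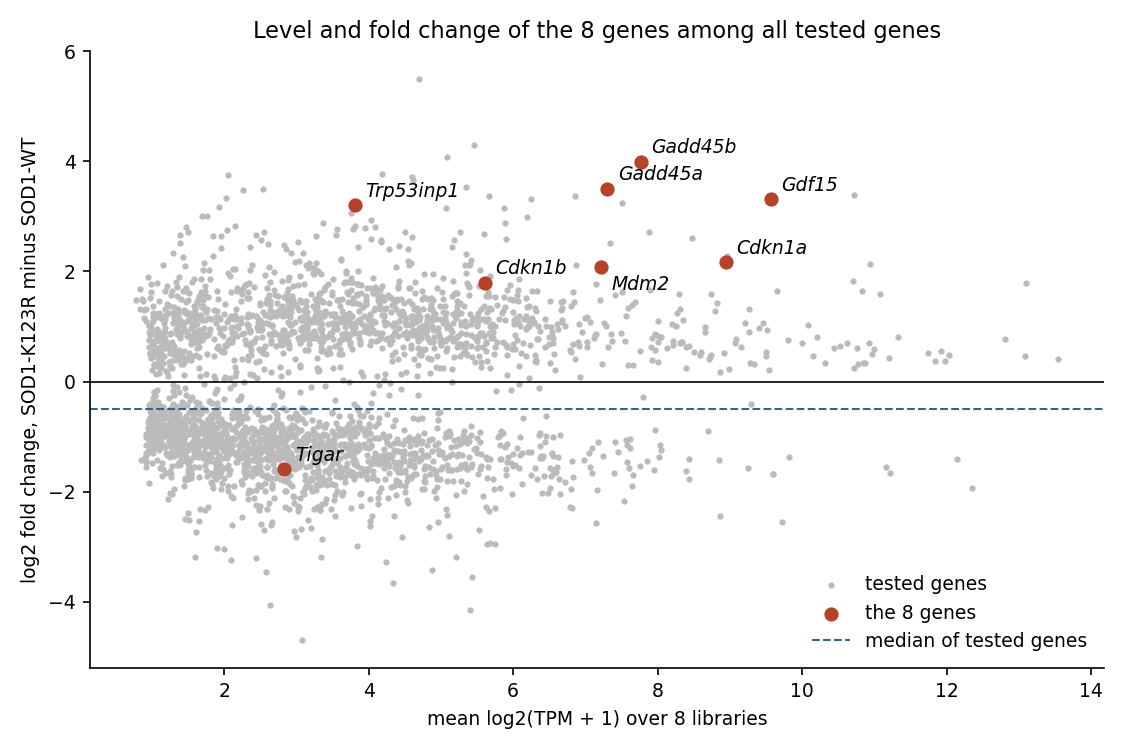
Log2 fold change (SOD1-K123R minus SOD1-WT, vertical) against the mean log2(TPM + 1) over the 8 libraries (horizontal) for the 2890 tested genes (grey) and the 8 genes (red); the dashed line is the median of the tested genes, at -0.49. Gadd45b, Gadd45a and Gdf15 lie near the upper edge, and few genes of the table lie close to a fold change of 0.

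Cdkn1a and Cdkn1b, 2 of the CIP/KIP inhibitors of CDKs, rose. Cdkn1a encodes p21, the best known p53 target, which binds and blocks cyclin-CDK complexes. It was present at 1042, 1000.2, 1113 and 1031 TPM in the SOD1-K123R libraries, against 293, 253, 208 and 190.4 TPM in the SOD1-WT libraries. The SOD1-K123R values were close together, with a coefficient of variation of 4.57%, while the SOD1-WT values spread by 19.6%. The means of 1046 ± 47.8 and 236 ± 46.2 TPM (SD, n = 4 each, as for all means below) differed 4.44-fold, with a log2 fold change of 2.16 (SE 0.12, limma adjusted p = 6.95e-09). Even the closest libraries of the 2 groups stood 3.42-fold apart. Cdkn1b encodes p27, a related inhibitor that is regulated mainly through its degradation and by FOXO transcription factors. It read 98.7, 96.7, 89.3 and 77.8 TPM in SOD1-K123R and 24.8, 22.6, 27.9 and 26.0 TPM in SOD1-WT. The 3.58-fold difference of the means was the smallest among the 7 genes that rose (log2 fold change 1.80, SE 0.10, limma adjusted p = 6.78e-09).

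The promoter of Cdkn1a is shown because it holds a p53 motif. RefSeq promoter windows of the GRCr8 assembly (250 bases before to 50 after an annotated start) were found for 7 of the 8 genes, with 2 windows for Gdf15, and none for Trp53inp1. They were searched on both strands for the p53 half-site, a degenerate motif of 10 bases, and for TGACGTCA, TGANTCA and CCAAT. The window of Cdkn1a lies at chr20:7150682-7150981 on the plus strand, and capitals mark the motif.
Cdkn1a: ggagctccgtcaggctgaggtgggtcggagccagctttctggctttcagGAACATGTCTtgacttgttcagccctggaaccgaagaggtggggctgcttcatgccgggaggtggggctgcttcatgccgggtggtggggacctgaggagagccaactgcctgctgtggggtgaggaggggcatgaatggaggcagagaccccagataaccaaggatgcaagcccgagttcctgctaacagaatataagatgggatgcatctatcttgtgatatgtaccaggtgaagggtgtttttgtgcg
The half-site begins at position -201 from the annotated start, and the 10 bases that follow it fit the same motif at 9 of 10 positions. The stretch of 20 bases is given below.
Cdkn1a p53 motif: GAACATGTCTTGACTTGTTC
A p53 half-site was found in 2 of the 7 genes with a window, Cdkn1a and Gadd45a. The windows of Cdkn1b, Gadd45b, Mdm2, Gdf15 and Tigar held none. Such a half-site occurred in 7.98% of all 33469 RefSeq windows and in 8.17% of the 2104 tested genes with a window. A half-site adjoined by 10 bases that fit at 9 or more positions, a pattern looked for after the sequence of Cdkn1a had been seen, occurred in 0.0717% of all windows and in 1 of the 2104 tested genes, which was Cdkn1a. A match describes the sequence and does not show that p53 binds there.

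The 2 GADD45 genes had the largest log2 fold changes of the 8 in the fit as reported. They encode small nuclear proteins that bind PCNA and activate the kinase MAP3K4 upstream of p38 and JNK; Gadd45a is a p53 target, whereas Gadd45b is known as a target of NF-kB and TGF-beta signalling. Gadd45a read 561, 570.2, 586 and 425 TPM in SOD1-K123R, against 38.0, 55.0, 54.7 and 39.4 TPM in SOD1-WT. SOD1-K123R replicate 4 was the low library of its group, and was still 7.74-fold above the highest SOD1-WT library. The means were 536 ± 74.3 and 46.7 ± 9.33 TPM, an 11.5-fold difference (log2 fold change 3.50, SE 0.14, limma adjusted p = 6.68e-10). After quantile normalization the log2 fold change of Gadd45a was 3.21, below the 3.31 of Trp53inp1, so its place among the 8 depends on the setting. Gadd45b read 849, 834, 1063 and 763 TPM in SOD1-K123R and 58.7, 51.0, 46.7 and 60.1 TPM in SOD1-WT. Its 16.2-fold difference (877 ± 129 and 54.1 ± 6.36 TPM; log2 fold change 3.99, SE 0.11, limma adjusted p = 5.27e-11) was the largest of the 8 genes. Ranked by log2 fold change, Gadd45b stood at 4 and Gadd45a at 10 from the top among all tested genes. This order is of log2(TPM + 1) values, which understate low genes, and not of TPM ratios. Rasd2, for example, ranked below Gadd45b with a log2 fold change of 3.75, though its TPM ratio was 106 (14.3 TPM in SOD1-K123R and 0.135 TPM in SOD1-WT). In GRCr8 the Gadd45a gene overlaps a long noncoding RNA gene, LOC100912188, and reads of the overlap cannot be assigned without knowing whether strand was counted.

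The promoters of the 2 genes are shown for comparison, with the p53 half-site and CCAAT, the box bound by NF-Y, in capitals on either strand. The Gadd45a window lies at chr4:97486750-97487049 and the Gadd45b window at chr7:9430669-9430968, both on the minus strand.
Gadd45a: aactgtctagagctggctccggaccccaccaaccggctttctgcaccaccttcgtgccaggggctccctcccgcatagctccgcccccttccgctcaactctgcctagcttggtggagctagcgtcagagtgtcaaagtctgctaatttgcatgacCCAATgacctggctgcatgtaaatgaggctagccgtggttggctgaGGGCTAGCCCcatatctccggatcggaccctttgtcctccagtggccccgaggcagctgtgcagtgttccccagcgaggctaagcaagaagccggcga
Gadd45b: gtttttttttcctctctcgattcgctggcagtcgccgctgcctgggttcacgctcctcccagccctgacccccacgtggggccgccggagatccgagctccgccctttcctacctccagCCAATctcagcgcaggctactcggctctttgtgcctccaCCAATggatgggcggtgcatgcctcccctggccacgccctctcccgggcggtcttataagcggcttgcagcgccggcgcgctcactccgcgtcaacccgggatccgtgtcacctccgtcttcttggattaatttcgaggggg
In Gadd45a the p53 half-site GGGCTAGCCC begins at position -48 from the start, with CCAAT further upstream, and the 10 bases after the half-site fit at only 4 positions. The Gadd45b window holds CCAAT at 2 places and no half-site. CCAAT was present in 6 of the 7 genes with a window, against 39.5% of all tested genes with a window, any window of a gene being counted. By single window, it was in 37.5% of all RefSeq windows. TGACGTCA (1.83% of all windows) and TGANTCA (7.33%) were in none of the windows of these genes. None of the matches in these genes overlapped another motif.

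Mdm2, the ligase that limits p53, rose. It read 334, 301, 329.8 and 257 TPM in SOD1-K123R and 65.8, 74.5, 85.0 and 62.1 TPM in SOD1-WT, so that replicate 4 was the lowest library in each group. The means of 306 ± 35.5 and 71.8 ± 10.2 TPM differed 4.26-fold (log2 fold change 2.08, SE 0.11, limma adjusted p = 6.19e-09). The change was close in size to that of Cdkn1a (95% intervals 1.83 to 2.33 for Mdm2 and 1.90 to 2.43 for Cdkn1a on the log2 scale).

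Gdf15, a secreted cytokine of the TGF-beta superfamily that p53 and the integrated stress response both induce, was the most abundant of the 8 genes in SOD1-K123R. It read 2260.3, 2336, 2643 and 2339 TPM in SOD1-K123R, against 267, 250.4, 219 and 224 TPM in SOD1-WT. Both groups were tight, with coefficients of variation of 7.08% and 9.34%. The means of 2394 ± 170 and 239.99 ± 22.4 TPM differed 9.98-fold (log2 fold change 3.32, SE 0.09, limma adjusted p = 3.16e-11). In GRCr8 the gene overlaps Lrrc25, a leucine-rich repeat gene, which was listed at 1.60 ± 0.336 TPM in SOD1-K123R and 0.163 ± 0.0984 TPM in SOD1-WT and was too low to be tested.

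Trp53inp1, which encodes a stress protein that binds p53-activating kinases and takes part in autophagy, rose, and had the lowest SOD1-WT level of the 8 genes. It read 50.1, 47.5, 38.8 and 32.3 TPM in SOD1-K123R and 3.05, 3.77, 5.42 and 2.71 TPM in SOD1-WT. These were the most variable SOD1-WT values among the 8 genes, with a coefficient of variation of 32.3%, and replicate 4 was the lowest library of both groups. The difference of the means was 11.3-fold (42.2 ± 8.17 and 3.74 ± 1.21 TPM; log2 fold change 3.20, SE 0.18, limma adjusted p = 7.46e-09).

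Tigar, a p53-induced phosphatase that lowers fructose-2,6-bisphosphate and so slows glycolysis, went the other way. It read 3.37, 3.42, 2.17 and 3.62 TPM in SOD1-K123R, against 12.8, 11.3, 10.4 and 11.2 TPM in SOD1-WT. Within SOD1-K123R replicate 3 was the lowest for Tigar, and it was the highest for Cdkn1a, Gadd45a, Gadd45b and Gdf15. The means of 3.15 ± 0.659 and 11.4 ± 0.986 TPM differed 3.63-fold, lower in SOD1-K123R (log2 fold change -1.59, SE 0.14, limma adjusted p = 2.51e-07). Measured from the median of all tested genes, the change was -1.10. Its promoter is shown as that of the gene that fell, with CCAAT in capitals on either strand; the window lies at chr4:161632180-161632479 on the minus strand.
Tigar: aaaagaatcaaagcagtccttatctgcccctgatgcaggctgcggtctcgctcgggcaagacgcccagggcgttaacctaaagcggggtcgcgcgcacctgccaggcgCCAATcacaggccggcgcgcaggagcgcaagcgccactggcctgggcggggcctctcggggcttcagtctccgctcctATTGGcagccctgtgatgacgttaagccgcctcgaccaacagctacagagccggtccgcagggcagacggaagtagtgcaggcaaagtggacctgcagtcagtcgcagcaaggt
CCAAT stands at 2 places, as in Gadd45b, which rose, and the window holds none of the other motifs searched.

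**Figure D3:**
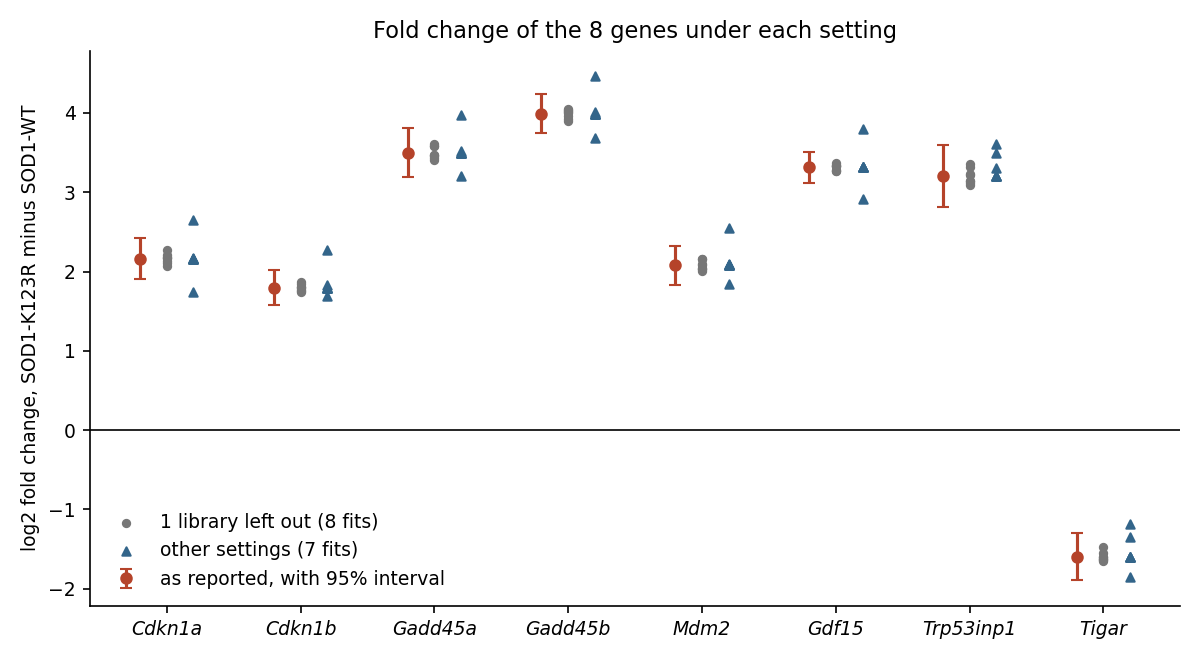
Log2 fold change (SOD1-K123R minus SOD1-WT) of each gene as reported with its 95% interval (red), with 1 library left out (grey, 8 fits) and under other settings of scaling, filter, pseudocount, variance model and replicate block (blue triangles, 7 fits). Each gene keeps its side of 0, from 3.68 to 4.47 for Gadd45b and from -1.85 to -1.19 for Tigar.

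The balance between the genes was compared within each library, where the scaling of a library nearly cancels out. For 6 pairs chosen by role, the difference of log2(TPM + 1) between both genes was set against the group in an exact two-sided permutation test, which with 4 against 4 libraries cannot give a p below 0.0286. Gdf15 over Cdkn1a was higher in SOD1-K123R, at 1.12 to 1.25, than in SOD1-WT, at -0.14 to 0.23, a difference of 1.15 on the log2 scale (exact p = 0.0286). Trp53inp1 over Cdkn1a was likewise higher, at -4.95 to -4.35 in SOD1-K123R and -6.18 to -5.02 in SOD1-WT (difference 1.04, exact p = 0.0286). Tigar over Cdkn1a differed by -3.76, with -8.46 to -7.80 in SOD1-K123R and -4.42 to -3.97 in SOD1-WT (exact p = 0.0286). All 3 of these pairs had a Benjamini-Hochberg adjusted p of 0.0571 over the 6 pairs in the exact test, and so none passed a threshold of 0.05 after adjustment. The adjusted p depends on the smallest p that 4 against 4 libraries allow and also on the larger p of the other 3 pairs.

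The other 3 pairs overlapped between the groups. Gadd45b over Gadd45a was 0.71 ± 0.16 in SOD1-K123R and 0.22 ± 0.45 in SOD1-WT, and SOD1-WT replicates 1 and 4, at 0.61 and 0.60, lay within the SOD1-K123R range (exact p = 0.143, adjusted 0.206). Cdkn1b over Cdkn1a was -3.52 ± 0.17 in SOD1-K123R and -3.15 ± 0.37 in SOD1-WT (exact p = 0.171, adjusted 0.206). Mdm2 over Cdkn1a was -1.78 ± 0.15 in SOD1-K123R and -1.69 ± 0.36 in SOD1-WT, a difference of -0.09 (exact p = 0.714), and it turned to 0.05 without SOD1-WT replicate 3. A p that misses the threshold does not show that both genes of a pair changed alike.

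**Figure D4:**
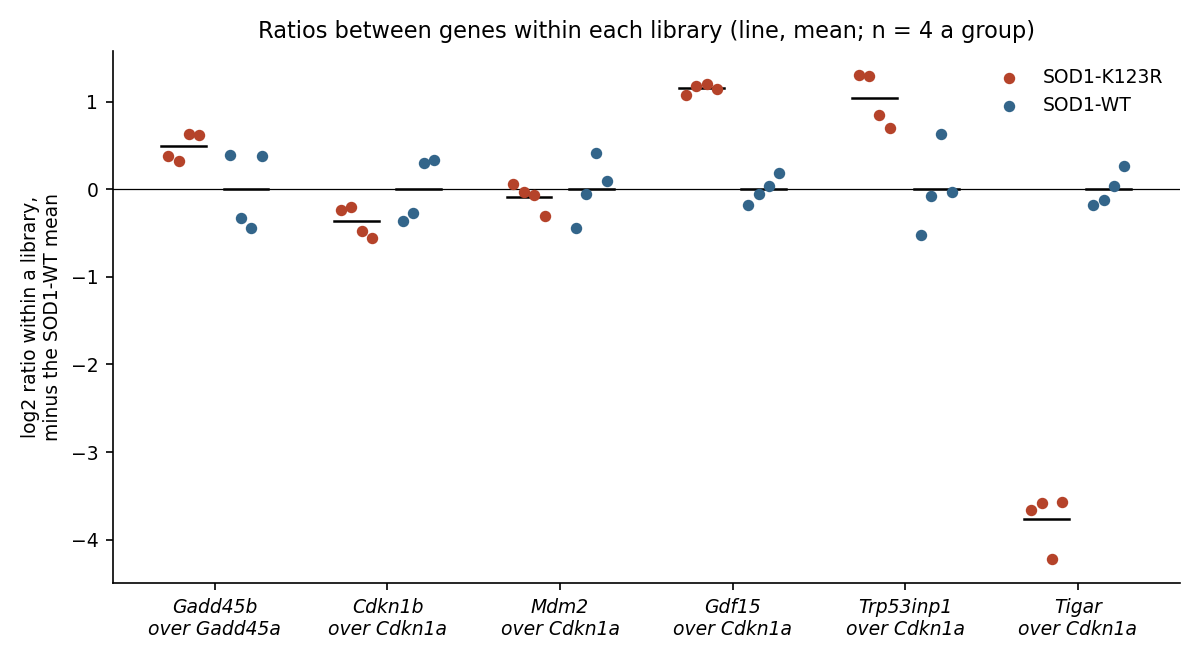
Log2 ratio of 2 genes within each library, minus the SOD1-WT mean of that ratio, in SOD1-K123R (red) and SOD1-WT (blue); points are libraries and lines are means (n = 4 a group). The groups do not overlap for Gdf15, Trp53inp1 and Tigar over Cdkn1a, and overlap for the other 3 ratios.

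The order of the levels, which TPM allow to be compared between genes, differed between the groups. In SOD1-K123R the order from high to low was Gdf15, Cdkn1a, Gadd45b, Gadd45a, Mdm2, Cdkn1b, Trp53inp1 and Tigar, and Cdkn1a and Gadd45b were the only neighbours whose ranges overlapped. In SOD1-WT it was Gdf15, Cdkn1a, Mdm2, Gadd45b, Gadd45a, Cdkn1b, Tigar and Trp53inp1. There Gdf15 and Cdkn1a overlapped, each being the higher in 2 of 4 libraries, and so did Gadd45b and Gadd45a. In SOD1-K123R, Gdf15 stood above 99.5% of the rows of the table by mean level and Tigar above 53.4%, and in SOD1-WT they stood above 97.4% and 70.8%. Within SOD1-K123R, replicate 4 was the lowest library for 5 of the 8 genes and replicate 3 the highest for 4. In SOD1-WT the highest and lowest values were spread over all 4 libraries.

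Other genes of the p53 pathway were counted from lists chosen with earlier results of these data known. Of 72 p53 targets in 4 lists, 28 were in the table and tested: 21 rose, 6 fell and 1, the repair methyltransferase gene Mgmt, did not pass (log2 fold change -0.14). Leaving out the 5 of the 8 genes that are in these lists, 17 of 23 rose and 5 fell, with a median log2 fold change of 1.10, beside 44.6% higher and a median of -0.49 among all tested genes. Targets without a row were not analysed here, so these counts cover the rows of the table and not p53 targets as a whole. The targets of cell death rose in 7 of 7 cases, Trp53inp1 among them (6 of 6 without it). They included Bbc3, the BH3-only protein PUMA (15.1 ± 1.88 TPM in SOD1-K123R and 4.72 ± 0.365 TPM in SOD1-WT), Phlda3, an inhibitor of AKT (log2 fold change 1.48), and Zmat3, an RNA-binding protein (38.7 ± 2.50 and 15.5 ± 0.457 TPM). After quantile normalization 5 of these 7 still passed, and Ninj1 and Bid did not (log2 fold changes 0.09 and 0.11, limma adjusted p = 0.441 and 0.226).

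Targets of cell cycle arrest were divided, with 7 of 10 higher and 3 lower, or 5 and 3 of 8 without Cdkn1a and Gadd45a, beside 44.6% higher and 51.1% lower among all tested genes. Ccng2, an atypical cyclin, rose to 57.3 ± 4.60 TPM in SOD1-K123R, against 7.89 ± 0.961 TPM in SOD1-WT, and Tob1, an antiproliferative protein, to 108 ± 8.06 TPM, against 50.002 ± 3.13 TPM. Sfn, which encodes 14-3-3 sigma and holds cells before mitosis, fell to 2.94 ± 0.207 TPM in SOD1-K123R, against 12.9 ± 1.28 TPM in SOD1-WT. Targets of metabolism and secretion rose in 5 of 6 cases, Gdf15 among them and Tigar being the exception (4 of 4 without these genes). Among them were Ddit4 and Sesn2, inhibitors of the growth kinase mTORC1 (log2 fold changes 2.67 and 1.31), and the receptor gene Epha2 (2.11). Of 5 targets of DNA repair 2 rose and 2 fell: Aen, an exonuclease gene, had a log2 fold change of 1.39 and Triap1, an inhibitor of apoptosis, of 0.67, whereas Pcna, the replication clamp that p21 and the GADD45 proteins bind, fell by 0.96 on the log2 scale.

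The upstream side of the pathway was thinly covered. Of 22 genes for p53 and its regulators only Mdm2 and Atm had a row, and the rest were not analysed here. Atm, the kinase that signals DNA breaks, was low and had overlapping groups, at 0.920 to 1.83 TPM in SOD1-K123R and 1.63 to 3.62 TPM in SOD1-WT. Its log2 fold change of -0.55 (limma adjusted p = 0.0121) no longer passed after median-of-ratios scaling or quantile normalization (limma adjusted p = 0.139 and 0.0919). Of the 15 rows that the table annotates to the KEGG p53 signaling pathway, 9 rose and 6 fell, and without Gadd45a, Gadd45b and Mdm2 the split was 6 and 6, with a median log2 fold change of -0.30. Of 34 rows annotated to the KEGG cell cycle pathway, 9 rose, 23 fell and 2 did not pass, and 3 of the 9 were Gadd45a, Gadd45b and Mdm2. The annotation of the table puts Cdkn1a under neither pathway, and Bbc3, Sesn2 and Zmat3 not under p53 signaling. Both counts therefore cover the annotated rows and not the whole pathways. Among all tested genes 44.6% were higher and 51.1% lower.

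Cyclins and related enzymes, the RB and E2F family and the other CDK inhibitors were counted beside all tested genes, of which 44.6% were higher and 51.1% lower. Whether the rise of Cdkn1a and Cdkn1b had a part in their changes was not tested. Of 21 cyclins and related enzymes 8 were in the table and 7 tested, of which 6 fell and 1, Ccnd1, rose. Ccne1, the cyclin of S-phase entry, fell to 4.05 ± 0.694 TPM in SOD1-K123R, against 16.4 ± 1.44 TPM in SOD1-WT, and Ccnb1, the mitotic cyclin, to 21.2 ± 1.38 TPM, against 66.4 ± 15.7 TPM. Ccnd1, the G1 cyclin D1, was at 856 ± 57.0 TPM in SOD1-K123R and 409 ± 45.4 TPM in SOD1-WT. Of 13 genes of the RB and E2F family 7 were in the table and tested, and all 7 fell, among them E2f1 (log2 fold change -2.31), which switches on S-phase genes, the repressor E2f6 (-1.64) and Tfdp1 (-1.30), the partner of E2F proteins. The other CDK inhibitors in the table rose less than Cdkn1a and Cdkn1b: Cdkn2b, which encodes p15 and blocks CDK4 and CDK6, had a log2 fold change of 0.65 and Cdkn1c, the p57 gene, of 1.01 at a level of 2.84 ± 0.375 TPM in SOD1-K123R and 0.920 ± 0.286 TPM in SOD1-WT.

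Partners and known inducers of single genes were also counted. Map3k4, the kinase that GADD45 proteins activate, was the only gene besides Gadd45a and Gadd45b of its list of 16 in the table, and it rose (11.5 ± 1.21 TPM in SOD1-K123R and 4.74 ± 0.259 TPM in SOD1-WT). Foxo3 and Foxo1, transcription factors that induce Cdkn1b, rose (log2 fold changes 1.28 and 0.87). Of the genes listed around Gdf15, all 7 tested rose, Gdf15 included (6 of 6 without it), beside 44.6% of all tested genes. Ddit3, the stress factor CHOP, was at 372 ± 7.44 TPM in SOD1-K123R and 35.1 ± 3.74 TPM in SOD1-WT, and Atf3 and Ppp1r15a, which act in the same response, had log2 fold changes of 2.76 and 1.63. Ddit3 is counted under the gene identifier that was tested, and a second identifier with this symbol lay below 1 TPM. Around Tigar, Hk2, a hexokinase that binds the TIGAR protein, and Pfkfb3 and Pfkfb4, which make fructose-2,6-bisphosphate, rose by log2 fold changes of 2.12, 1.65 and 0.77.

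**Figure D5:**
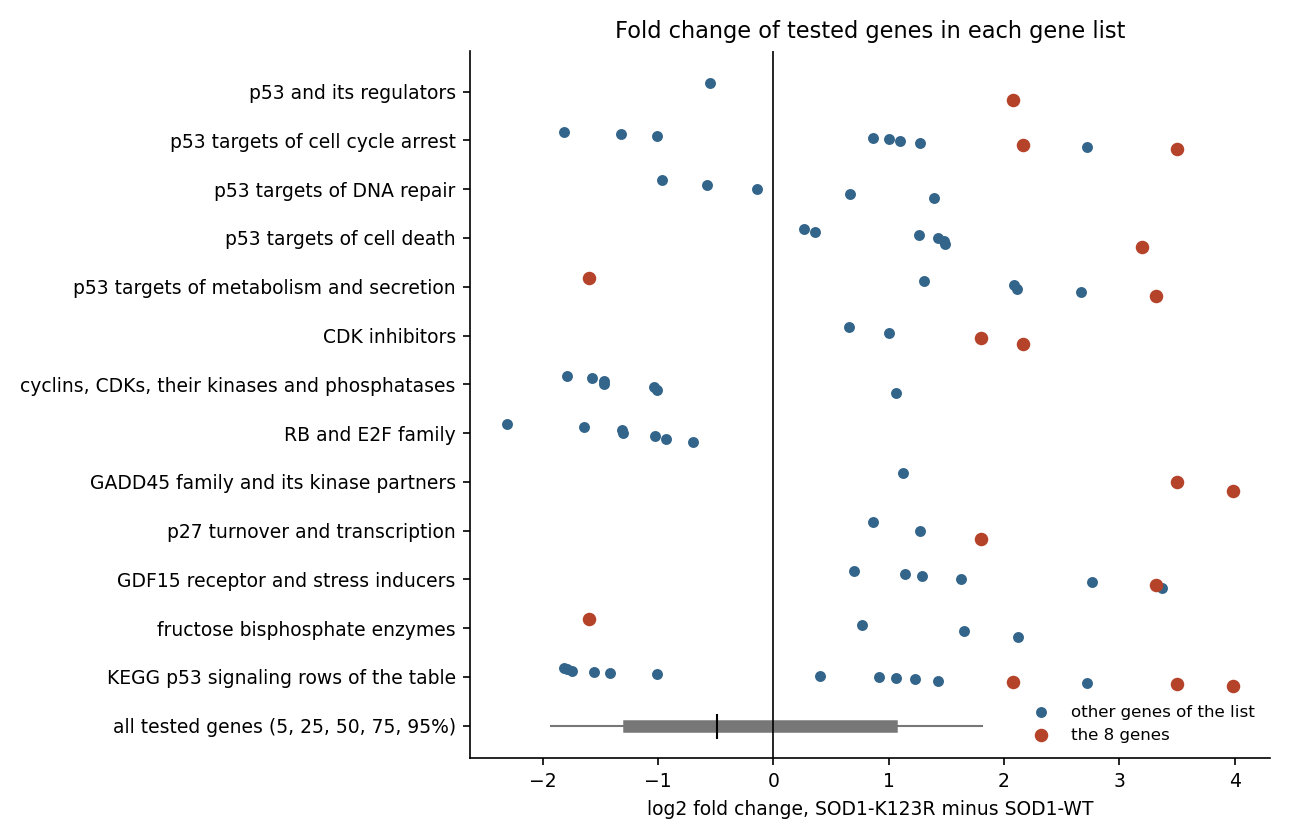
Log2 fold change (SOD1-K123R minus SOD1-WT, horizontal) of the tested genes in each list, with the 8 genes in red and other list genes in blue; the grey bar spans the 25th to 75th and the line the 5th to 95th percentile of all tested genes, with the median as a tick. The RB and E2F genes all lie below 0, the targets of cell death all lie above it, and Tigar is the 1 gene below 0 in both of its lists.

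Genes whose profile over the 8 libraries was nearest to that of each of the 8 were found by the root mean square distance between log2(TPM + 1) values, each gene taken relative to its own SOD1-WT mean. This distance mostly reflects the size of the group difference, which nearly all genes show. Nearest to Cdkn1a were Psmb8 (distance 0.13) and Tap2 (0.16), of antigen processing. For Cdkn1b they were Il1rap (0.071), a subunit of the interleukin-1 receptor, and Epn2 (0.075), an endocytic adaptor. Gadd45a had Tiparp (0.15), an ADP-ribosyltransferase, and Irf1 (0.18), an interferon-regulated transcription factor. Gdf15 had Ddit3 (0.15) and again Irf1 (0.16). For Gadd45b the nearest were Lrrc32 (0.14), a docking receptor of latent TGF-beta, and Rasd2 (0.197), a Ras-like GTPase. Mdm2 had Gna13 (0.11), a G protein subunit, and Hspa5 (0.13), a chaperone of the endoplasmic reticulum. The nearest to Trp53inp1 were Txnip (0.24), the thioredoxin-interacting protein, and Ddit3 (0.24), and the nearest to Tigar were Dnajc11 (0.061), a mitochondrial co-chaperone, and Eid2 (0.078), an inhibitor of differentiation. Among the 8 genes themselves the closest pairs were Cdkn1b with Mdm2 (0.24), Cdkn1a with Mdm2 (0.25) and Gadd45a with Trp53inp1 (0.27), and the most distant was Gadd45b with Tigar (3.96).

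The cell type label and the composition of the libraries were checked against marker lists. Of 16 markers of nucleus pulposus cells 7 were in the table, summing to 33.4 to 52.1 TPM in SOD1-K123R and 20.9 to 24.2 TPM in SOD1-WT. Of the 6 that were tested, 4 were higher in SOD1-K123R (Cd24, Sox9, Car12 and Nog, with log2 fold changes of 1.24 to 1.58) and 2 were lower (Acan, -0.62, and Cdh2, -1.40). Acan and Col2a1, which encode the main proteoglycan and collagen of this tissue, were low: Acan was at 0.645 ± 0.0998 TPM in SOD1-K123R and 1.54 ± 0.419 TPM in SOD1-WT, and Col2a1 averaged 0.0650 TPM in SOD1-K123R and was listed at 0 in all SOD1-WT libraries. Markers of annulus fibrosus and tendon (3 of 8 in the table) summed to 262 to 326 TPM in SOD1-K123R and 696 to 1155 TPM in SOD1-WT. Most of this sum was 1 gene, Thbs2 (282 ± 25.9 TPM in SOD1-K123R and 777 ± 216 TPM in SOD1-WT), while Scx was at 10.5 ± 1.70 and 29.1 ± 6.60 TPM. Macrophage and leukocyte markers (2 of 9, Cd68 and Lyz2) summed to 23.4 to 30.9 TPM in SOD1-K123R and 5.44 to 8.04 TPM in SOD1-WT. Nearly all of it was Cd68, and Lyz2 averaged 0.873 TPM in SOD1-K123R and 0.025 TPM in SOD1-WT. For endothelium (2 of 8) the sums were 0.470 to 0.670 TPM in SOD1-K123R and 0.080 to 0.390 TPM in SOD1-WT. The single adipocyte marker of 5, Fabp4, ranged from 10.8 to 16.4 TPM in SOD1-K123R and from 6.34 to 14.2 TPM in SOD1-WT. Osteoblast markers (3 of 6) summed to 12.5 to 17.2 TPM in SOD1-K123R and 11.8 to 16.02 TPM in SOD1-WT, and within this sum Runx2 was higher (13.3 ± 2.23 TPM in SOD1-K123R and 4.52 ± 1.03 TPM in SOD1-WT) and Ibsp lower (1.54 ± 0.509 and 9.22 ± 1.82 TPM). No erythroid marker was in the table. The part of these differences in the changes of the 8 genes was not tested.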

How the data were processed

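RNA was isolated with TRIzol and sequenced as paired ends on an Illumina NovaSeq, per the labels' protocols. The authors deposited 1 table of TPM per gene, whose name gives RSEM as the source, and DESeq2 is named without a role per the submitters' processing notes. The sources used here give no aligner, genome build or annotation. TPM keep no read depth, so depth is unknown. The columns summed to 23.5 to 24.3% of a full TPM table in SOD1-K123R and 18.8 to 19.9% in SOD1-WT, so the rows are part of the genes, chosen by a rule that no source used here gives. Only 8.44% of tested genes had an absolute log2 fold change under 0.5.

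The 2890 of 4226 genes averaging 1 TPM or more over all libraries were fitted as log2(TPM + 1) with limma 3.58.1 in R 4.3.3 (two-sided, eBayes with trend, Benjamini-Hochberg over all tested genes), which was tested on simulated data. Fold changes on this scale understate the change of low genes. Ratios were tested in scipy 1.17.1. Library identifiers form 1 run per group, so handling and group cannot be told apart. The 8 genes and all lists were chosen with earlier results of these data known; 81 of 246 list genes were in the table, 2 through a RefSeq synonym. Beside the 8 genes, the text names up to 3 genes of each list by smallest adjusted p and the 2 nearest profiles of each gene; Ninj1, Bid, Mgmt, Lrrc25 and the single markers were named after their values were seen. Alternatives changed the pseudocount, the filter, the scaling, the trend and the replicate block, or left out 1 library. Promoter windows are from RefSeq (GRCr8).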

Additional observations from a re-analysis of the deposited data

Results flagged for a closer look

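Among 114 sets of 4 values behind the results above, 6 had a library that stood apart from the rest of its group by Dixon's criterion, which chance gives in about 1 set in 20. Gadd45a read 425 TPM in SOD1-K123R replicate 4, the lowest of a group that otherwise read 561 to 586 TPM. The log2 ratio of Tigar over Cdkn1a was -8.46 in SOD1-K123R replicate 3, with the other libraries at -7.90 to -7.80. Dnajc11, the nearest profile to Tigar, was also lowest in SOD1-K123R replicate 3, at 11.4 TPM against 15.8 to 16.4 TPM in the rest of the group. In SOD1-WT replicate 3, Pcna was highest at 173.7 TPM, against 127 to 129.98 TPM, and Pfkfb4 was highest at 9.26 TPM, against 8.20 to 8.37 TPM. Tob1 was highest in SOD1-WT replicate 4, at 54.7 TPM, against 48.0 to 48.7 TPM.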

How the results depend on the processing

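For each of the 8 genes the log2 fold change kept its direction and passed in limma under all 15 alternatives (7 settings and 8 fits without 1 library). The largest adjusted p among these fits was 7.64e-06, for Tigar. The counts of the 8 genes that rose and fell were 7 and 1 under each alternative. Median-of-ratios scaling moved the median log2 fold change of all tested genes to -0.14 and quantile normalization to -0.26, against -0.49 as reported; with a mean of at least 5 TPM it was 0.27; the range for Cdkn1a was 1.75 to 2.65 and for Gdf15 2.91 to 3.80. The number of tested genes lower in SOD1-K123R was 897 with a mean of at least 5 TPM, where fewer genes were tested, against 1476; the split was then 948 higher and 897 lower, against 1289 and 1476, and after median-of-ratios scaling 1363 and 1353. The difference in the ratio of Mdm2 over Cdkn1a, which did not pass in any of the 3 settings tested, turned to 0.096 after quantile normalization; the cause was not tested. Of 643 alternative values of the 43 other genes named by the rule, 2 lost their call, both for Atm, and none reversed. Outside that rule, Ninj1 and Bid lost theirs after quantile normalization, the marker Thbs4 after median-of-ratios scaling (limma adjusted p = 0.331) and the marker Fabp4 in 4 of the 8 fits without 1 library (limma adjusted p = 0.0654 to 0.104, against 0.0298). With the replicate number as a block, 1282 genes were higher and 1461 lower, and no call of the 8 genes changed. Same-numbered libraries had correlations of -0.35 to 0.054 between their deviations from the group means, so the numbers were not taken to pair samples.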
